A study of Mus musculus with 4 samples.

Results

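This account covers 9 mouse genes that release calcium from the endoplasmic reticulum, sense how full that store is, and refill it. They are the IP3 receptor genes Itpr1, Itpr2 and Itpr3, the sensor genes Stim1 and Stim2, the entry channel genes Orai1 and Orai3, and the pump genes Atp2a2 and Atp2a3. They were taken by gene symbol from the 45777 genes of the deposited tables, and all 9 were found. The set was selected on the measured level of Itpr2, which was higher in both Smad4 Knockout libraries than in both Control libraries. The contrast between the groups was thus known for these genes, and their differences are given as a description without a test.

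RNA of 4 mouse gastric organoid lines was sequenced, and such organoids are cultures in which epithelial cells of the stomach build small three-dimensional bodies. The lines of interest carry the genotype label Smad4 Knockout (2 libraries), and the study's title describes them as knockouts of Cdh1, Trp53 and Smad4. The others are labelled Control (2 libraries) and are knockouts of Cdh1 and Trp53, so every library carries those knockouts by label and none is wild type. The labels say neither how the knockouts were made nor if each line stems from its own animal or clone, so p-values measure only the spread between these libraries, which may be technical. All lines spent 2 days before harvest in medium with B27 and N2 and without serum or L-WRN conditioned medium.

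The totals were 85649781 and 96402585 counts in the Smad4 Knockout libraries and 99845702 and 92334224 in the Control libraries, and the 9 genes had from 579 to 63607 counts in a library. Smad4 itself was at 54.4 and 52.9 CPM (counts scaled by library size) in the knockouts, against 94.5 and 103 CPM in the controls. Transcript of the targeted gene was thus lower but remained in both knockout libraries. Its log2 fold change was -0.88 (SE 0.10), with edgeR adjusted p = 0.677 in a test that called 0 of all 18115 genes. Counts per gene do not show which exons they come from. Cdh1 was at 30.6 and 44.1 CPM in the knockouts and at 30.7 and 26.02 CPM in the controls, and Trp53 was at 5.43 and 4.69 CPM in the knockouts and at 4.87 and 6.98 CPM in the controls. The libraries did not group by genotype: over 10804 genes the root mean square log2 distance was 0.274 between the knockouts and 0.287 between the controls, while Smad4 Knockout 1 lay at 0.232 from Control 2 and Smad4 Knockout 2 lay at 0.395 from it. The 8 markers of gastric epithelium were present in all libraries, with Cldn18 at 155 and 142 TPM (transcript abundance scaled by length and library) in the knockouts and at 143 and 153 TPM in the controls. The summed markers of chief, parietal and enteroendocrine cells each stayed at or below 1.91 TPM, with Pgc, Atp4b and Gast at 0 in all libraries, and those of smooth muscle, fibroblasts, endothelium and immune cells each at or below 1.63 TPM.

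Many receptors at the cell surface switch on phospholipase C, which cuts a membrane lipid to make the messenger IP3. IP3 opens its receptors, large channels in the endoplasmic reticulum membrane, and calcium flows out of the store into the cytosol. STIM proteins in that membrane sense the fall in stored calcium and open ORAI channels in the plasma membrane, and SERCA pumps, encoded by the Atp2a genes, return calcium to the store. In secretory epithelia this circuit is known for its part in the release of fluid, enzymes and mucus.

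The 3 IP3 receptor genes code for closely related channels, and the coding stretch around the pore is shown because it is where the kinship of the family can be read directly. Each stretch is 90 bases of coding sequence, read from a GENCODE M21 transcript on GRCm38, 5′ to 3′ along the gene, and the capitals mark the 18 bases that code for the selectivity filter. Each crosses 1 intron, so the positions give its outer ends: chr6:146157124-146158964 on the minus strand for Itpr2 (exons 53 and 54), chr6:108518752-108519296 on the plus strand for Itpr1 (exons 58 and 59), and chr17:27118595-27119226 on the plus strand for Itpr3 (exons 54 and 55).
Itpr2: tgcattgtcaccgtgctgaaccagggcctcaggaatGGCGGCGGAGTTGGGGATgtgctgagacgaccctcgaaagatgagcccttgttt
Itpr1: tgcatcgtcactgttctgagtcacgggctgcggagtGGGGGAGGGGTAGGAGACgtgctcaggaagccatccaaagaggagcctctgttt
Itpr3: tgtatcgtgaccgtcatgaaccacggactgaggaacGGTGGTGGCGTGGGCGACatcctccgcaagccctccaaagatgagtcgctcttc
In this stretch Itpr2 shared 64 of 90 bases with Itpr1 and 61 of 90 with Itpr3. Over the aligned coding sequences the identity was 71.8% between Itpr2 and Itpr1, 71.5% between Itpr2 and Itpr3, and 70.2% between Itpr3 and Itpr1. The longest run of identical bases between any pair was 32, between Itpr2 and Itpr3.

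IP3 receptors release the stored calcium, and Itpr2 (gene ID 16439, chromosome 6, 146108299 to 146502258 in GRCm38, minus strand) was the gene of the set that differed most between the genotypes. Its product binds IP3 with the highest affinity of the family and is best known from heart muscle and liver. The deposited TPM, a level per transcript length, was 5.14 and 4.93 in the Smad4 Knockout libraries, against 2.53 and 2.45 in the Control libraries. The libraries of each genotype lay close together and the genotypes were far apart, with a spread of at most 1.04-fold within a group and a ratio of 2.02 between the group means. The means were 5.03 ± 0.148 TPM in the knockouts and 2.49 ± 0.0614 TPM in the controls (SD, n = 2 each). These are bulk samples, in which more cells of a type and more RNA per cell cannot be told apart.

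The counts behind these levels were 3055 and 3518 in the knockouts and 1866 and 1612 in the controls, which is 35.3 and 36.3 CPM against 19.05 and 17.4 CPM. The fitted log2 fold change was 0.98 (SE 0.12), and with any 1 of the 4 libraries left out it stayed between 0.91 and 1.04. Selection on the level of Itpr2 in both knockouts favours such a steady value, so it is no separate support. Of all 18115 genes tested, 8.97% had a larger absolute log2 fold change than Itpr2. The transcript length implied by count and FPKM averaged 12668 bases for Itpr2, and its highest value over the libraries was 1.03 times its lowest, so the levels of all 4 libraries rest on nearly the same length.

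Summed markers of some gastric cell types were also higher in both knockouts, but not each single marker was. The 2 mucous neck markers summed to 113 and 65 TPM in the knockouts, against 48.7 and 37.5 TPM in the controls, nearly all of it Tff2, while Muc6 was at 0 in both knockouts. The 4 surface mucous markers summed to 122 and 233 TPM in the knockouts and to 84.6 and 60.3 TPM in the controls, and the 5 tuft cell markers to 12.5 and 12.6 TPM in the knockouts and to 11.5 and 9.96 TPM in the controls, with Trpm5 and Plcb2 at 0 in every library. Of the surface mucous markers Tff1 and Gkn1 were higher in both knockouts, while Muc5ac and Gkn2 overlapped between the genotypes. Of the tuft markers Dclk1 was higher in both knockouts, while Avil and Pou2f3 overlapped. The part of these cell types in the level of Itpr2 was not tested.

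Itpr3 (gene ID 16440, chromosome 17, 27057002 to 27122223, plus strand) codes for the receptor that sits near the apical side of secretory epithelial cells and was the most abundant of the family. It was at 60.5 and 44.1 TPM in the knockouts, against 62.9 and 77.1 TPM in the controls. Both knockout libraries lay below both controls, by a wide margin in Smad4 Knockout 2 and by a narrow one between Smad4 Knockout 1 and Control 1. The means were 52.3 ± 11.6 TPM and 70.02 ± 10.1 TPM (SD, n = 2 each), knockouts first, so the gap between them was of the order of the spread within a group. The fitted log2 fold change was -0.46 (SE 0.15), and it was -0.28 without Smad4 Knockout 2.

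Itpr1 (gene ID 16438, chromosome 6, 108213083 to 108551116, plus strand), the receptor best known from cerebellar Purkinje neurons, stood between the other two in level and its groups overlapped. It was at 8.57 and 6.88 TPM in the knockouts and at 6.9 and 7.41 TPM in the controls. The highest and the lowest library were both knockouts. Its log2 fold change was 0.07 (SE 0.12).

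**Figure D1:**
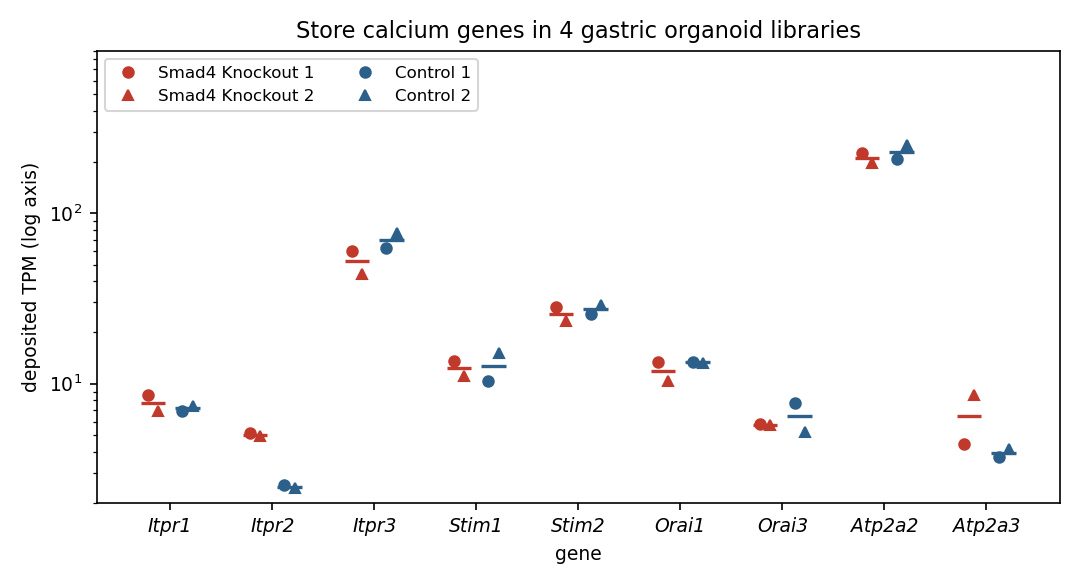
Deposited TPM (log axis) of the 9 genes in each library, with Smad4 Knockout in red left of Control in blue, circles for library 1, triangles for library 2 and a line at each group's mean. Itpr2 is the gene whose groups stand clearly apart, and Atp2a3 is high in Smad4 Knockout 2 alone, at 8.55 TPM.

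The make-up of IP3 receptor transcript can be read within a library, so it does not depend on scaling between libraries. Itpr2 made up 6.93% and 8.82% of the summed TPM of the 3 genes in the knockouts, against 3.5% and 2.81% in the controls. Itpr1 made up 11.5% and 12.3% in the knockouts, against 9.54% and 8.52% in the controls, and Itpr3 made up 81.5% and 78.9%, against 87.0% and 88.7%. All 3 shares were thus apart between the genotypes, with Itpr3 the main receptor transcript in every library. The 3 shares add up to the whole, so they are not independent, and the TPM of Itpr1 itself overlapped between the genotypes. Itpr3 was 11.8 and 8.95 times as high as Itpr2 in the knockouts and 24.8 and 31.5 times as high in the controls, on the TPM scale.

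The share of Itpr2 averaged 7.87% ± 1.34 in the knockouts and 3.16% ± 0.488 in the controls (SD, n = 2 each), a difference of 4.71 percentage points. The summed level of the family overlapped between the genotypes, at 74.2 and 55.9 TPM in the knockouts and at 72.3 and 87.0 TPM in the controls. The rule that chose these genes used the level of Itpr2, so its share is a description too.

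**Figure D2:**
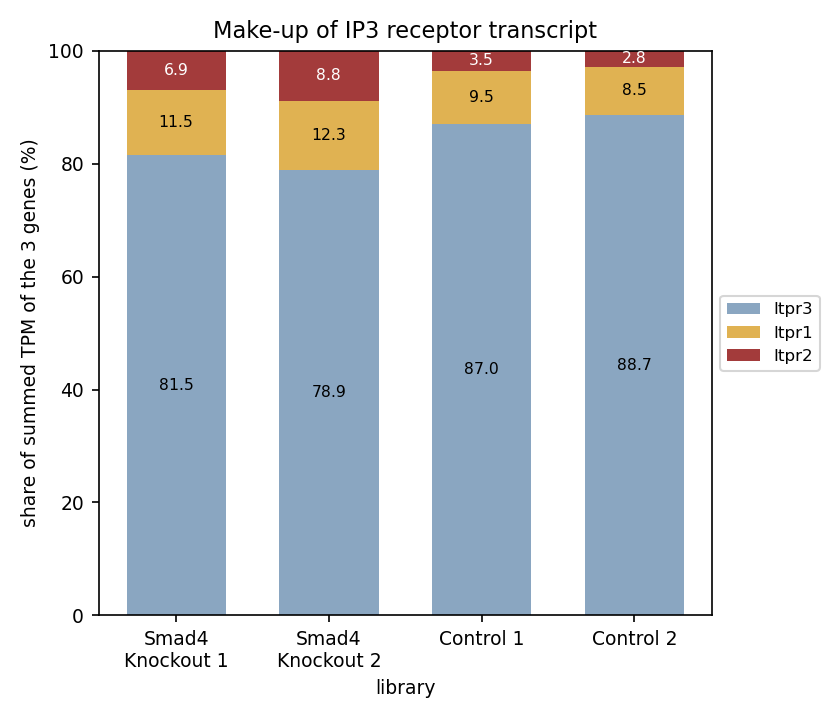
Share of each IP3 receptor gene in the summed TPM of the 3 genes (y axis, percent) in each library (x axis, Smad4 Knockout left of Control). The Itpr2 band is at 6.93% and 8.82% in the knockouts and at 3.5% and 2.81% in the controls, and the Itpr3 band is smaller in both knockouts.

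STIM proteins sense the calcium of the store. Stim2 (chromosome 5, 53998523 to 54121057), known to respond to small falls of stored calcium and to set resting levels, was at 28.1 and 23.4 TPM in the knockouts and at 25.7 and 29.1 TPM in the controls. Stim1 (chromosome 7, 102261514 to 102437319), the sensor that drives entry after strong emptying of the store, was at 13.5 and 11.2 TPM in the knockouts and at 10.4 and 15.1 TPM in the controls. The TPM ranges of the genotypes overlapped for both sensors. Stim2 was from 1.93 to 2.47 times as high as Stim1 on the TPM scale over the 4 libraries. The log2 fold changes were -0.13 (SE 0.11) for Stim2 and -0.08 (SE 0.17) for Stim1. That of Stim2 was -0.04 without Smad4 Knockout 2, and that of Stim1 was 0.15 without Control 2 and 0.01 without Smad4 Knockout 2.

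ORAI proteins form the plasma membrane channel that STIM opens. Orai1 (chromosome 5, 123015074 to 123030452), the main pore subunit, was at 13.4 and 10.4 TPM in the knockouts and at 13.4 and 13.3 TPM in the controls. Smad4 Knockout 2 was the low library, while Smad4 Knockout 1 lay among the controls. Its log2 fold change was -0.20 (SE 0.16), but -0.06 without Smad4 Knockout 2 and -0.34 without Smad4 Knockout 1. Orai3 (chromosome 7, 127769815 to 127775150), a relative that can join Orai1 in mixed channels, was at 5.78 and 5.7 TPM in the knockouts and at 7.71 and 5.2 TPM in the controls. The controls lay on either side of the knockouts, and the log2 fold change of -0.21 (SE 0.26) was 0.16 without Control 1 and -0.51 without Control 2. Orai2, which is not one of the 9 genes, was at 6.23 and 5.39 TPM in the knockouts. In the controls it was at 7.98 and 7.31 TPM, so all 3 channel genes were transcribed. On the CPM scale Orai2 was at 14.6 and 16.9 in the knockouts and at 20.3 and 17.3 in the controls. The TPM and CPM scales thus order the 2 knockouts differently, and the transcript length implied for Orai2 was not compared between libraries.

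SERCA pumps refill the store. Atp2a2 (gene ID 11938, chromosome 5, 122453513 to 122502225), the widely used pump, had the highest level of the set, at 225 and 197 TPM in the knockouts and at 209 and 251 TPM in the controls. Its groups overlapped in TPM and its log2 fold change was -0.15 (SE 0.10), with -0.09 without Smad4 Knockout 2 and -0.07 without Control 2. It made up 98.1% and 95.8% of the summed SERCA TPM in the knockouts and 98.3% and 98.4% in the controls.

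Atp2a3 (gene ID 53313, chromosome 11, 72961169 to 72993043), a pump known for a lower calcium affinity and for its presence in epithelia and blood cells, was at 4.43 and 8.55 TPM in the knockouts, against 3.73 and 4.14 TPM in the controls. The higher mean in the knockouts came from Smad4 Knockout 2, since Smad4 Knockout 1 was close to the controls. The log2 fold change was 0.70 (SE 0.33), but 0.09 without Smad4 Knockout 2 and 1.13 without Smad4 Knockout 1. The surface mucous markers were highest in the same library, with Tff1 at 113 and 204 TPM in the knockouts and at 80.3 and 55.5 TPM in the controls, and with Muc5ac under 1 TPM in all 4 libraries. Their part in the level of Atp2a3 was not tested.

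In order of mean TPM over the 4 libraries the genes ran Atp2a2, Itpr3, Stim2, Orai1, Stim1, Itpr1, Orai3, Atp2a3 and Itpr2. Atp2a2 (mean 220 TPM), Itpr3 (61.2 TPM) and Stim2 (26.6 TPM) were apart from their neighbours in every library. Orai1 and Stim1, with means of 12.6 TPM each, could not be ordered. Among Itpr1, Orai3, Atp2a3 and Itpr2 the ranges of genes next to each other in the order overlapped. Over the 4 libraries Itpr1 (6.88 to 8.57 TPM) and Orai3 (5.2 to 7.71 TPM) each lay above Itpr2 (2.45 to 5.14 TPM).

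On the CPM scale the 2 knockout libraries lay on 1 side of the 2 controls in 6 of the 9 genes, higher for Itpr2 and Atp2a3 and lower for Itpr3, Stim2, Orai1 and Atp2a2. Among all 18115 genes tested the same was true of 36.9%, with 18.2% higher and 18.6% lower. On the TPM scale this held for 3 of the 9, Itpr2, Atp2a3 and Itpr3, so the separations of Stim2, Orai1 and Atp2a2 depend on the scaling. The median log2 fold change was -0.13 over the 9 genes and -0.0026 over all genes, and the median absolute value was 0.20 against 0.17. With edgeR's quasi-likelihood test 0 of all genes passed an adjusted p of 0.05 (0.0%), while 1153 had an unadjusted p under 0.05. Without Smad4 Knockout 1 the same test called 92 genes. DESeq2 called 133 genes, 0.724% of the 18375 genes to which it gave an adjusted p. Of the 133, 99 were higher in the knockouts (0.539% of the 18375), and Itpr2 was the 1 gene of the set among the 133. As the contrast had chosen the set, nothing is read from these counts for its members.

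**Figure D3:**
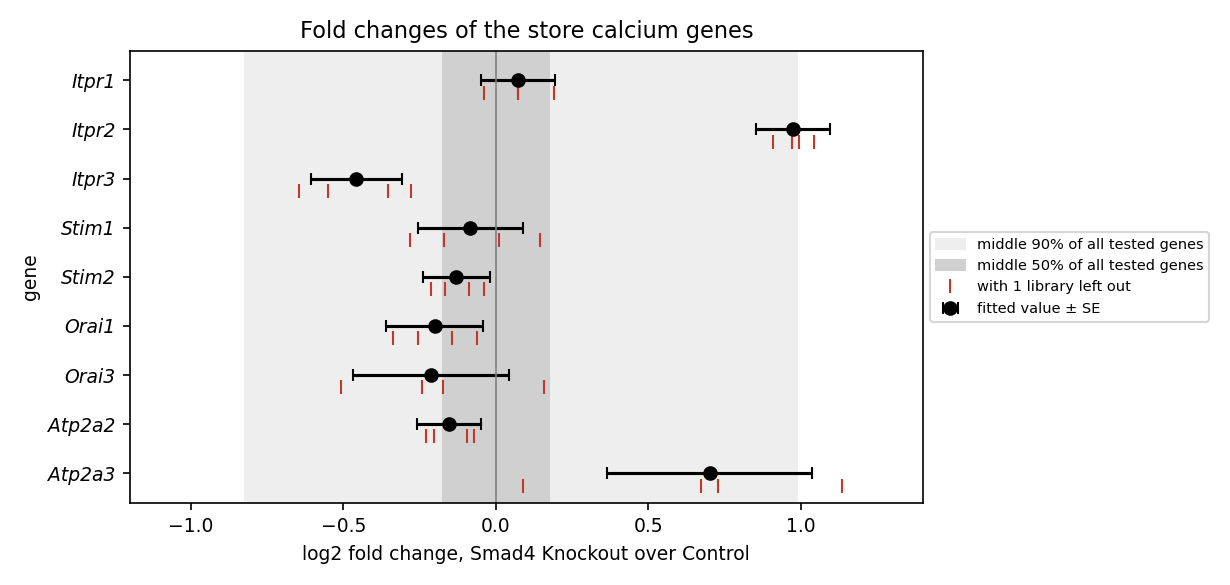
Fitted log2 fold change (x axis, Smad4 Knockout over Control) of each gene with its standard error, over bands that hold the middle 50% and 90% of all 18115 genes, and with red ticks for the value when 1 library is left out. Itpr2 keeps its value in all 4 cases, from 0.91 to 1.04, while Atp2a3 falls to 0.09 in 1 of them. The set was selected on Itpr2, so its steady value is a description only.

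Overlapping and neighbouring genes were then looked at. GENCODE lists 15 loci that overlap the 9 genes, and the 4 of them with an entry in the deposited tables had at most 3 counts in a library. Within 1000 kb of Itpr2, 16 other tested genes averaged at least 1 CPM, and their log2 fold changes had a median of -0.004. The gene nearest to its start, Ints13, lay 47.4 kb away and was at 69.3 and 68.9 CPM in the knockouts and at 76.3 and 63.3 CPM in the controls. Beyond its other end, at -242.9 kb, Bhlhe41, a transcriptional repressor of the circadian system, was at 2.64 and 1.83 CPM in the knockouts, against 3.19 and 3.87 CPM in the controls. The highest value was that of Rep15 (log2 fold change 0.80, SE 0.53), at 1.47 and 4.34 CPM in the knockouts and at 1.95 and 1.39 CPM in the controls. Both knockouts lay on 1 side of both controls for 7 of the 16 genes, where 36.9% of all genes tested did so. Etfrf1, Fgfr1op2, Mrps35, Klhl42 and Pthlh were higher, and Rassf8 and Bhlhe41 were lower. No gene in this window had a log2 fold change as high as that of Itpr2. The choice of Itpr2 by its level favours this, and 8.97% of all genes tested had a larger absolute value, so it is a description only.

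**Figure D4:**
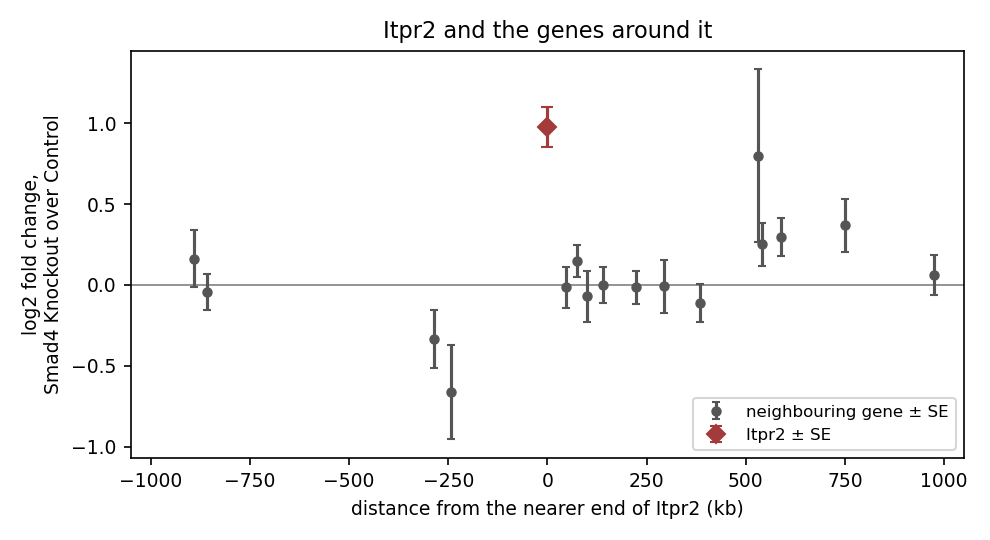
Log2 fold change (y axis, Smad4 Knockout over Control, with standard error) of Itpr2 and of the 16 tested genes within 1000 kb of it, by distance in kb from its nearer end (x axis). Itpr2 stands at 0.98 and the neighbours range from -0.66 to 0.80, with a median of -0.004. Itpr2 was selected on its level, so its place above them is a description only.

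The region just before Itpr2 is shown because Itpr2 differs most in the set and because SMAD proteins are known to bind the short SMAD box CAGAC. The 215 bases before the outermost RefSeq start of Itpr2 (chr6:146502259-146502473 in GRCm38.p6, minus strand) are given 5′ to 3′ along the gene, with the motif in capitals.
Itpr2: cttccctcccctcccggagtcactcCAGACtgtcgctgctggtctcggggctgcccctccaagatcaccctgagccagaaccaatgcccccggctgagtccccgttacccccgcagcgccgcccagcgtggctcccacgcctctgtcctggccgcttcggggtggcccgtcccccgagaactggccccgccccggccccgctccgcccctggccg
The stretch held 1 match to CAGAC, searched on both strands, and 74.0% of its bases were G or C, against a median of 51.6% over all windows. Of 27025 promoter windows of the same length 37.8% held at least 1 match. RefSeq promoters were at hand for 7 of the 9 genes, without Itpr1 and Atp2a2, and 4 of the 7 held a match: Itpr2, Stim2 and Atp2a3 with 1 each and Orai3 with 3. Binding of SMAD proteins was not measured, and a match is no more than these letters.

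The genes most like Itpr2 over the 4 libraries were Robo2, St8sia4, Clca3b, Mcf2l and Syt16, by the root mean square difference of centred log2(CPM + 0.5) among 10103 candidates. The differences ran from 0.0949 for Robo2 to 0.131 for Syt16, and the nearest of the other store calcium genes, Atp2a3, was at 0.401. Robo2, a receptor for SLIT guidance proteins, was at 7.22 and 7.05 CPM in the knockouts and at 3.73 and 3.88 CPM in the controls. St8sia4, an enzyme that adds polysialic acid, was at 9.3 and 10.4 CPM in the knockouts and at 4.9 and 5.32 CPM in the controls. Over 4 libraries, being like Itpr2 means little more than being higher in both knockouts by a similar amount. Clca3b has close relatives in the genome, so its counts are uncertain where reads were shared.

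Genes that act before and after the IP3 receptors were taken from 10 wider lists with 152 entries, of which 151 were in the tables and 130 distinct genes were tested. With edgeR 0 of the 130 were called higher and 0 lower, as for all genes (0.0%). An unadjusted p under 0.05 was reached by 3 higher and 5 lower genes, 8 of 130, where 6.36% of all genes tested reached it. The knockout libraries lay above both controls for 25 of the 130 (19.2%) and below both for 29 (22.3%), near the 18.2% and 18.6% of all genes tested. The median log2 fold change over the 130 genes was 0.008, and over single lists it ran from -0.31 to 0.14. With 1 library left out, 9 of 40 list medians changed sign, so the direction of a list's median is not read as a result.

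Upstream of IP3, 16 receptor and G protein genes had a median log2 fold change of -0.02 and 11 phospholipase C genes one of -0.06, which was 0.15 without Control 2. Without Smad4 Knockout 2 the medians were 0.06 for the receptors and 0.0018 for the phospholipases. F2rl1, a receptor cut open by proteases such as trypsin, was at 144 and 125 CPM in the knockouts and at 174 and 164 CPM in the controls (log2 fold change -0.33, SE 0.12, edgeR adjusted p = 0.726). Plcb1 was at 27.8 and 34.5 CPM in the knockouts and at 20.3 and 26.0 CPM in the controls (0.42, SE 0.18), with 0.26 without Control 1. Plcl2, a relative of the phospholipases that binds IP3 without cutting lipid, was named after its values were seen. It was at 2.46 and 2.95 CPM in the knockouts, against 0.766 and 0.27 CPM in the controls, which is 213 and 286 counts against 75 and 25. Its log2 fold change was 2.38 (SE 0.53, edgeR adjusted p = 0.677, DESeq2 adjusted p = 0.0265), with 3.32 without Control 1 and 1.82 without Control 2. It was the 1 gene that DESeq2 called among the 130 tested genes of the wider lists. DESeq2 called 0.724% of all genes, so nothing is read from this count.

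No gene that uses up IP3 or acts on its receptors passed the edgeR test, which called 0 of all 18115 genes. Of 12 genes of IP3 breakdown, with a median of 0.002, Impa2, an inositol monophosphatase, was at 9.996 and 11.2 CPM in the knockouts and at 14.4 and 13.6 CPM in the controls (log2 fold change -0.41, SE 0.15, edgeR adjusted p = 0.754). The 14 genes of receptor regulators had a median of 0.14, and Itprip, a receptor-interacting protein, was at 24.3 and 25.7 CPM in the knockouts and at 28.9 and 30.7 CPM in the controls (-0.25, SE 0.12, edgeR adjusted p = 0.819). The groups did not overlap for either gene, which their choice by smallest p favours and which held for 36.9% of all genes tested.

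Other routes of release, leak and transport lay near 0 as lists. Among 15 genes of store release and entry (median 0.08), Tmco1, a protein of the endoplasmic reticulum described as a channel that opens when the store is overfilled, was at 49.6 and 60.7 CPM in the knockouts and at 45.8 and 42.6 CPM in the controls (0.32 on the log2 scale, SE 0.14, with 0.18 when Smad4 Knockout 2 was left out). The 9 pumps and exchangers had a median of -0.12, which was 0.07 without Smad4 Knockout 2, 0.09 without Control 2 and 0.03 on log2(TPM + 1). Among them was Atp2b1, a calcium pump of the plasma membrane, at 282 and 307 CPM in the knockouts and at 276 and 249 CPM in the controls. The 16 calcium buffers and chaperones of the store had a median of 0.02 (-0.07 without Control 2), and Canx, a chaperone, was at 1052 and 1065 CPM in the knockouts and at 1119 and 1078 CPM in the controls. The 12 genes of mitochondrial uptake had a median of 0.12.

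Downstream of released calcium, 20 genes of calmodulin, calcineurin and NFAT had a median of -0.05, which was 0.03 without Smad4 Knockout 2. Camkk2, a kinase switched on by calmodulin, was at 23.9 and 21.6 CPM in the knockouts and at 27.8 and 32.9 CPM in the controls (log2 fold change -0.42, SE 0.14, edgeR adjusted p = 0.706). The 5 tested calcium activated channel genes had the lowest median, -0.31, which was 0.01 without Smad4 Knockout 2 and 0.08 without Control 2. Ano1, the chloride channel that calcium opens in secretory epithelia, was at 284 and 199 CPM in the knockouts and at 343 and 372 CPM in the controls. Its log2 fold change was -0.57 (SE 0.18, edgeR adjusted p = 0.678), and it was -0.32 without Smad4 Knockout 2. Both knockouts lay below both controls for Ano1, with Smad4 Knockout 2 the lowest, though its choice by smallest p favours such a separation.

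The other genes that the naming rule gave for these lists did not pass the test, as no gene did, with edgeR adjusted p from 0.735 to 0.935. All 30 genes named by the rule kept their sign with any 1 library left out. The rule took those with the smallest p of this same contrast, which favours kept signs, so nothing is read from this. For 21 the log2 fold change shrank by over 1.5 times without some library, most often without Smad4 Knockout 2 (13 genes). Among the receptors, F2r, the thrombin receptor, was at 696 and 463 CPM in the knockouts and at 789 and 731 CPM in the controls (log2 fold change -0.39, SE 0.20), but at -0.11 without Smad4 Knockout 2. P2ry1, a receptor for extracellular ADP, had a value of -0.21 (SE 0.14). Of the phospholipases, Plce1 had 0.53 (SE 0.22) and Plcd3 had -0.26 (SE 0.11). The lists thus held genes on both sides of 0, also within 1 family of enzymes.

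Among the enzymes that process inositol phosphates, Ipmk, a kinase, was at 69.6 and 74.5 CPM in the knockouts and at 61.3 and 59.8 CPM in the controls, and Inpp1, a phosphatase, stood at 0.45 on the log2 scale (SE 0.19). Itprid2 had 0.31 (SE 0.15) and Itpripl2 had -0.30 (SE 0.16), and the value of Itpripl2 was -0.09 without Smad4 Knockout 2. Cracr2b, a regulator of ORAI channels, had 0.37 (SE 0.18), and Pkd2, a calcium permeable channel, had -0.27 (SE 0.13). The value of Pkd2 was -0.12 without Smad4 Knockout 2, and that of Itprid2 was 0.15 without Control 1. Both knockouts lay on 1 side of both controls for all of these, which their choice by smallest p favours. The same held for 36.9% of all genes tested.

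For transport and buffering, the log2 fold changes were -0.22 for Tmem165, a Golgi ion transporter (SE 0.11), and 0.16 for Atp2c1, the calcium pump of the Golgi (SE 0.12, with 0.07 when Smad4 Knockout 2 was left out). Nucb2 and Nucb1, calcium binding nucleobindins, had -0.35 (SE 0.14) and -0.18 (SE 0.10). In mitochondria Letm1, an inner membrane ion exchanger, had -0.19 (SE 0.10), while the outer membrane channels Vdac2 and Vdac3 had 0.20 (SE 0.12) and 0.14 (SE 0.12), and the groups overlapped for Vdac3. The kinase gene Camk2g was at 27.6 and 25.6 CPM in the knockouts and at 33.4 and 33.2 CPM in the controls, and Camk2b had -0.50 (SE 0.24), with -0.18 without Smad4 Knockout 2. Among channels that calcium opens, Kcnn4, a potassium channel, had -0.31 (SE 0.14), and Trpm4, a cation channel, had 0.28 (SE 0.18) with overlapping groups. Kcnn4 was at -0.16 without Smad4 Knockout 2, Trpm4 at 0.10 without Control 2 and Vdac3 at 0.03 without Control 2.

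**Figure D5:**
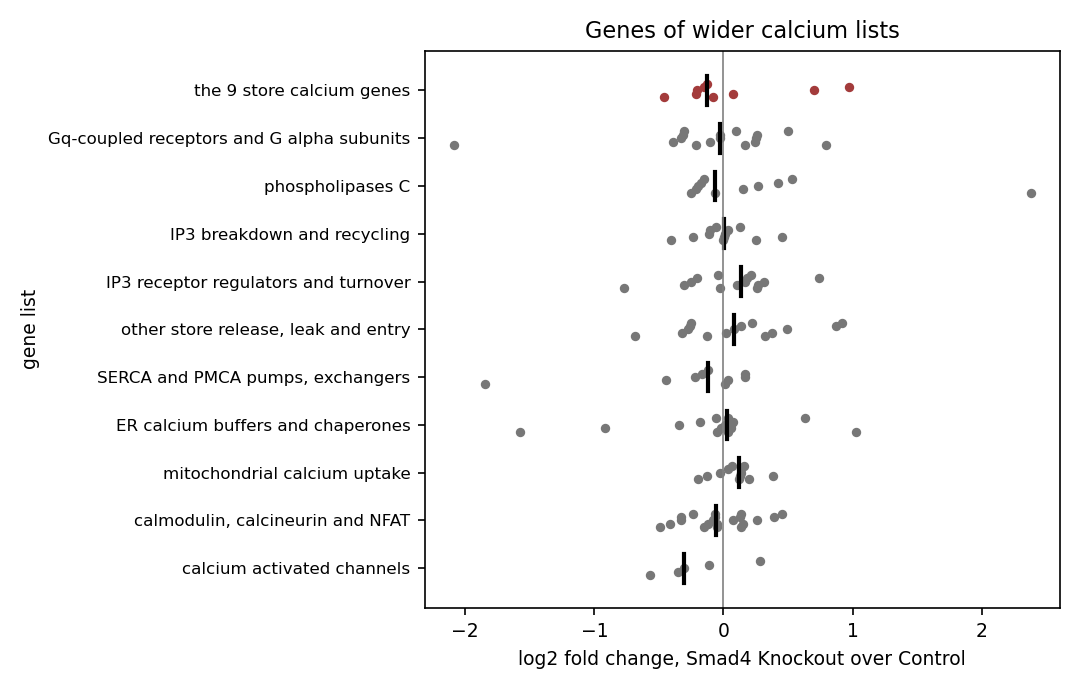
Log2 fold changes (x axis, Smad4 Knockout over Control) of the tested genes of each list, 1 point per gene, with the list's median as a black bar and the 9 store calcium genes in red. The list medians lie between -0.31 and 0.14, and the far right point among the phospholipases is Plcl2 at 2.38.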

How the data were processed

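RNA of 4 libraries was prepared with the TruSeq Stranded Total RNA Gold kit (labels' protocols). The submitters' processing notes list StringTie 2.1.3b, HISAT2 2.1.0, Trimmomatic, bcl2fastq 2.20.0 and mm10. The labels do not state the counting step or its strand setting. Per the file headers, each deposited table holds TPM, FPKM and read count columns by gene. The deposited counts were treated as estimated counts, already whole. The deposited TPM gave levels, and the deposited FPKM the implied length (count over FPKM). The columns of Control 2 carry its title with an added 2. A total of 1 further value column was not used, and 26 symbols turned into dates were restored by gene ID.

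Counts were fitted with edgeR 4.0.16 in R 4.3.3 (quasi-likelihood F-test, TMM, filterByExpr with its minimum of 10, genotype as the only term, Benjamini-Hochberg over 18115 genes). The SE is the log2 fold change over the square root of F, and CPM use TMM-scaled totals. An exact two-sided permutation test of 2 against 2 libraries reaches 0.333 at best and was left out. The code was tested on simulated data. DESeq2 1.42.0 and limma 3.58.1 gave alternatives. The members and lists were chosen with earlier results of these data known. Of each wider list the genes named are, where edgeR called none, the 3 with the smallest p among those whose higher group averages 5 CPM or more; genes most like Itpr2 also average at least 5 CPM. Neighbours of Itpr2 were named after their values were seen. Where 1 library was left out, the lone library of its group was assumed to vary like the other group.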

Additional observations from a re-analysis of the deposited data

How the results depend on the processing

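With all libraries kept, the 9 log2 fold changes had the same sign as the main value in all 54 alternative values, and with 1 library left out in 32 of 36; the 4 that turned belonged to Itpr1, Stim1 and Orai3. Itpr2 ran from 0.79, on log2(TPM + 1) where the pseudocount shrinks low levels, to 1.04. The count of all genes called was 0 in edgeR and 0 in limma on TPM, 133 in DESeq2, and from 0 to 92 with 1 library left out, the 92 without Smad4 Knockout 1 and 1 without Control 1. Of the 130 tested genes of the wider lists DESeq2 called 1, where it called 0.724% of all genes. Genes of the 9 whose groups did not overlap numbered 6, but 5 in edgeR without the filter and 3 in each of the 3 limma fits on TPM. They numbered from 6 to 8 with 1 library left out, where 2 libraries are set against 1 and separate more easily. The share over all genes tested was 36.9% in the main fit and was not computed for the other settings. Nothing is thus read from these numbers. Of the medians of the wider lists 7 of 60 turned sign with all libraries kept and 9 of 40 with 1 left out. The median of the 9 ran from -0.17 to -0.04 with 1 library left out. The difference in the share of Itpr2 was 5.85 percentage points from read counts, which are not per length, and from 3.77 to 5.66 with 1 library left out. No paired analysis was possible because the labels give no replicate numbers that groups share. With 2 libraries a group, and Orai3 at 579 counts in its lowest library, small differences were not detectable. Larger ones did not pass in edgeR either, as for Plcl2 (log2 fold change 2.38, edgeR adjusted p = 0.677).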

Other observations

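Both Casq2 and Cracr2a were named after their values were seen, because of a low unadjusted p. Neither passed the edgeR test, as no gene did. Casq2, a calcium buffer best known from the heart muscle store, was at 2.23 and 2.93 CPM in the knockouts and at 1.44 and 1.1 CPM in the controls (log2 fold change 1.02, SE 0.32, edgeR adjusted p = 0.677). Cracr2a, a calcium binding regulator of ORAI channels, was at 2.3 and 3.42 CPM in the knockouts and at 1.85 and 1.28 CPM in the controls (0.87, SE 0.34, edgeR adjusted p = 0.783). Around Itpr3, the 36 tested genes within 1000 kb with at least 1 CPM had a median log2 fold change of -0.11 and ranged from -0.53 to 0.62. Around Atp2a3, 22 such genes had a median of -0.03.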
